A study of Caenorhabditis elegans with 15 samples.

Results

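The flavin monooxygenase genes *fmo-1*, *fmo-2*, *fmo-3*, *fmo-4* and *fmo-5* of *Caenorhabditis elegans* were followed in mRNA sequencing of whole nematodes. They were selected by gene identifier and public name, and the family was chosen because *fmo-2* was seen to be far higher in both mutant strains than in wild-type animals in these same libraries. The 5 genes are members of a table of 20483 genes. The 3 strains were sequenced with 5 biological replicates each, which gave 15 libraries. The *age-1; gas-1* double mutants carry *age-1(hx546)* and *gas-1(fc21)*, the *gas-1* mutants carry *gas-1(fc21)* alone, and wt is N2. GAS-1 is a core protein of mitochondrial complex I, and AGE-1 is the PI3 kinase that relays signals of the insulin/IGF receptor. Animals were kept at 20 °C on OP50 bacteria. The labels name the stage as L4, the last larval stage, but the methods of the study describe RNA extraction from young adults. The stage was not tested here. Both mutant strains thus share the *gas-1* allele, and no library of *age-1* alone was analysed here, so the effect of *age-1* could be read only on the *gas-1* background.

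Flavin monooxygenases sit at the endoplasmic reticulum. They use bound FAD, NADPH and molecular oxygen to place an oxygen atom on nitrogen or sulfur of drugs, food compounds and metabolites. In *C. elegans*, *fmo-2* is switched on in the intestine when the hypoxia factor HIF-1 is stabilised, during fasting and under oxidative stress, and extra FMO-2 prolongs life. The *fmo-4* product is known from the hypodermis, the excretory duct cell and pharyngeal gland cells, where it serves in osmoregulation.

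The levels are given in FPKM, that is sequenced fragments divided by transcript length and by library size, which allows levels of different genes to be compared per length. The FPKM of all genes summed to between 658126 and 702623 in a library, and the number of reads behind a value is unknown. The test covered the 11648 genes that reached 1 FPKM in 5 or more libraries, all 5 members among them, and *fmo-2* passed only through the mutant libraries. Changes are log2 fold changes on FPKM + 0.1 with a 95% interval from limma, and a gene was called at a Benjamini-Hochberg adjusted p under 0.05 over all genes tested. Both alleles are point mutations, so transcript levels of *gas-1* and *age-1* do not check the strain of a library. Intestinal genes were present in every library, and markers of sperm were low in wt replicate 3, *gas-1* replicate 2 and *age-1; gas-1* replicates 2 and 5, with a median of the markers on the log2 scale between -2.002 and -1.23 there. Levels in whole animals cannot tell fewer cells of a type from less RNA per cell.

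In WBcel235 the genes lie on 3 autosomes. *fmo-1* (WBGene00001476) spans 10661857 to 10664404 of chromosome IV on the plus strand, and its 2 annotated transcripts of 7 and 8 exons share a coding sequence of 533 codons. *fmo-2* (WBGene00001477) spans 10682524 to 10684367 of the same chromosome and strand, with 1 transcript of 5 exons, 1659 bases and 529 codons. *fmo-3* (WBGene00001478) lies at 10694681 to 10698864 of chromosome III on the plus strand, with coding sequences of 512 and 455 codons. On chromosome V and the minus strand, *fmo-4* (WBGene00001479) spans 13603276 to 13606701 and encodes 568 codons. *fmo-5* (WBGene00001480) spans 899304 to 903665 there, with coding sequences of 518 and 180 codons. No annotated gene overlaps any of the 5. Between the end of *fmo-1* and the start of *fmo-2* lie 18.1 kb with 3 protein-coding genes, *epi-1*, K08C7.4 and K08C7.7.

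In *age-1; gas-1* mutants *fmo-2* had 23.7, 32.2, 34.4, 30.6 and 32.01 FPKM in replicates 1 to 5. The *gas-1* libraries had 25.7, 11.9, 22.3, 13.5 and 14.2 FPKM of *fmo-2*, and the wt libraries 0.120, 0.058, 0.172, 0.032 and 0.083 FPKM. Every mutant library was thus far above every wt library, and the *gas-1* libraries fell into 2 higher values and 3 lower ones. The mean was 30.6 ± 4.07 FPKM (SD, n = 5) in *age-1; gas-1*, 17.5 ± 6.07 in *gas-1* and 0.0929 ± 0.0548 in wt. In terms of rank among all genes, *fmo-2* stood at the 82.4th percentile of levels in *age-1; gas-1*, the 75.8th in *gas-1* and the 27th in wt.

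The level of *fmo-1*, the neighbour of *fmo-2*, followed another order. It was 11.1, 12.6, 16.5, 14.6 and 12.8 FPKM in *age-1; gas-1*, against 6.64, 6.12, 5.61, 6.58 and 9.47 FPKM in *gas-1* and 13.7, 5.81, 5.60, 4.79 and 7.41 FPKM in wt. The *age-1; gas-1* libraries were all above the *gas-1* libraries, while wt replicate 1 lay within the range of *age-1; gas-1* and the other 4 wt libraries below it. *fmo-1* averaged 13.5 ± 2.08 FPKM in *age-1; gas-1*, 6.88 ± 1.503 in *gas-1* and 7.47 ± 3.63 in wt (SD, n = 5 each).

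For *fmo-4* the values were 22.2, 22.6, 25, 23.7 and 21.5 FPKM in *age-1; gas-1* and 24.0, 20.5, 24.5, 21.2 and 20.4 FPKM in *gas-1*, against 12.0, 14.5, 10.7, 12.7 and 11.2 FPKM in wt. The mutant strains overlapped with each other and lay apart from wt. Its replicates lay close together, with a coefficient of variation of 5.94% in *age-1; gas-1*, 8.90% in *gas-1* and 12.2% in wt. For *fmo-2* this was 13.3% in *age-1; gas-1*, 34.7% in *gas-1* and 59.0% in wt.

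The remaining genes, *fmo-3* and *fmo-5*, were low in every library. *fmo-3* had 2.405, 2.13, 2.71, 2.85 and 2.15 FPKM in *age-1; gas-1*, 2.41, 1.82, 2.67, 2.54 and 2.45 in *gas-1* and 1.29, 2.26, 1.62, 1.63 and 2.16 in wt. *fmo-5* had 2.28, 2.13, 2.74, 2.52 and 2.49 FPKM in *age-1; gas-1*, 2.22, 1.99, 2.05, 2.29 and 2.33 in *gas-1* and 2.35, 2.25, 2.16, 1.85 and 2.38 in wt. All 3 strains overlapped for both genes. The lowest *fmo-3* libraries of the mutants were *age-1; gas-1* replicates 2 and 5 and *gas-1* replicate 2, which are the mutant libraries low in sperm markers, and the part of that in the level of *fmo-3* was not tested.

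**Figure D1:**
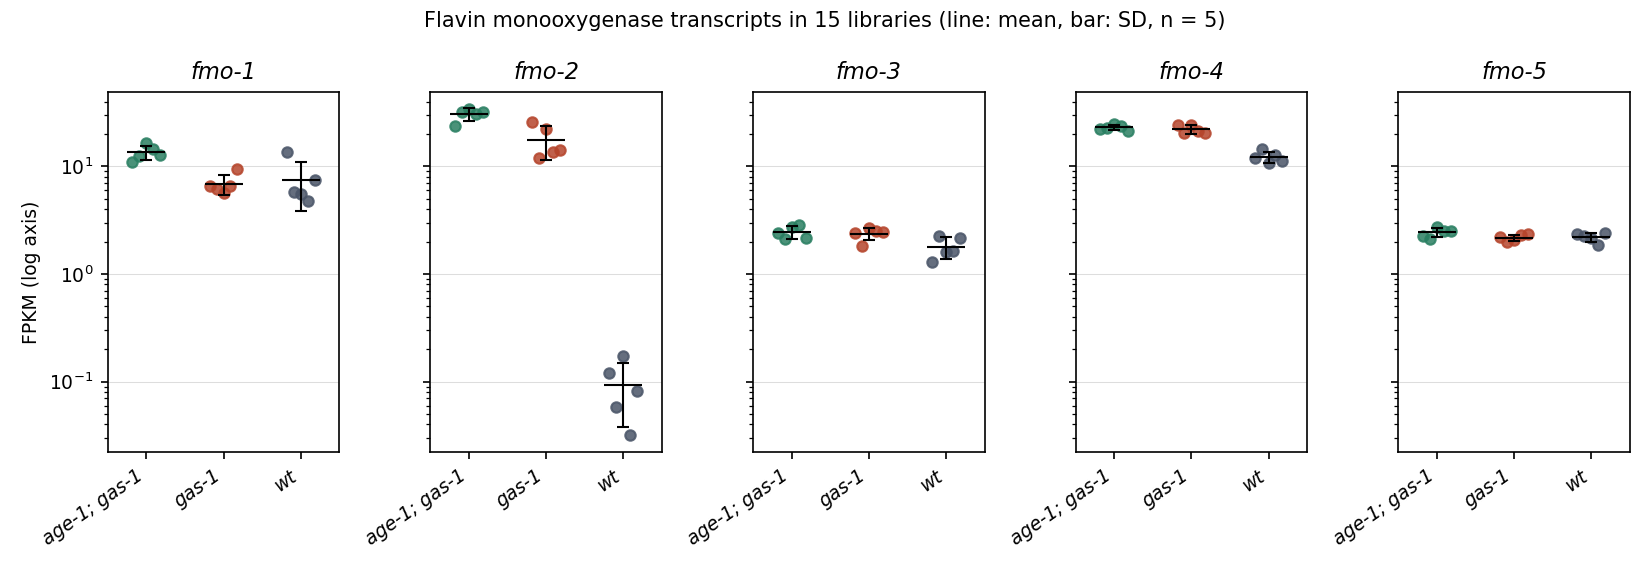
FPKM on a log axis of each flavin monooxygenase gene in the 5 libraries of *age-1; gas-1*, *gas-1* and wt, with 1 point per library, the mean as a line and the SD as a bar. *fmo-2* averaged 30.6 and 17.5 FPKM in *age-1; gas-1* and *gas-1* and 0.0929 in wt, *fmo-4* stood at 23.0 and 22.1 FPKM in these strains against 12.2 in wt, and *fmo-3* and *fmo-5* stayed near 2 FPKM.

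The order of the members differed between the strains. In *age-1; gas-1* it was *fmo-2*, *fmo-4*, *fmo-1*, *fmo-3* and *fmo-5*, and *fmo-2* exceeded *fmo-4* in 5 of 5 libraries although their ranges overlapped. In *gas-1* mutants *fmo-4* came before *fmo-2* in 4 of 5 libraries, again with overlapping ranges, and *fmo-1*, *fmo-3* and *fmo-5* followed. In wt *fmo-4* led, *fmo-1* came next, below it in 4 of 5 libraries, and *fmo-2* was last, below every other member in all libraries. The levels of *fmo-3* and *fmo-5*, which were adjacent in this order, overlapped in all 3 strains.

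The 5 genes together amounted to 72.0 ± 7.08 FPKM in *age-1; gas-1*, 51.1 ± 7.73 in *gas-1* and 23.8 ± 3.70 in wt (SD, n = 5). *fmo-2* made up 42.4% ± 2.77 of this sum in *age-1; gas-1*, 33.5% ± 6.54 in *gas-1* and 0.399% ± 0.271 in wt. The share of *fmo-4* was 32.1% in *age-1; gas-1* and 43.7% in *gas-1*, against 52.1% in wt, although its level was higher in the mutants. *fmo-1* held 18.7% of the sum in *age-1; gas-1*, 13.8% in *gas-1* and 30.5% in wt. In the mutants *fmo-2* and *fmo-4* thus held most of the sum, and in wt *fmo-4* and *fmo-1*.

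**Figure D2:**
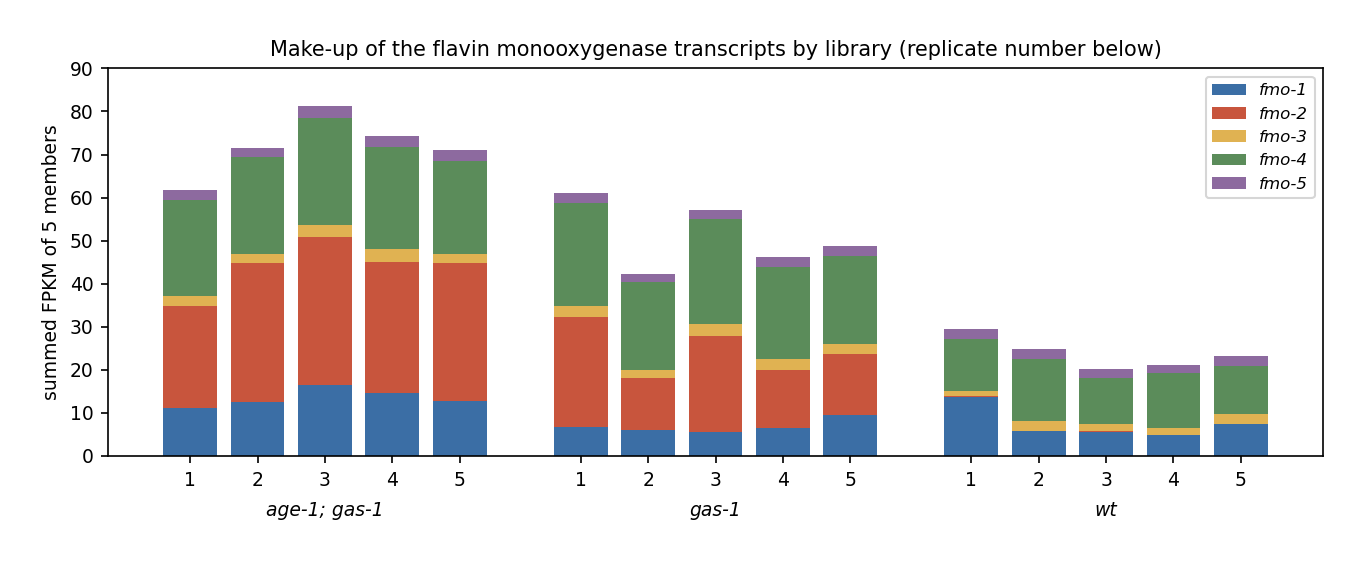
Summed FPKM of the 5 flavin monooxygenase genes in each library, stacked by gene, for *age-1; gas-1*, *gas-1* and wt with the replicate number below each bar. The *fmo-2* block made up 42.4% of the sum in *age-1; gas-1* and 33.5% in *gas-1* on average, and 0.399% in wt, where it is barely visible.

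The comparison of *age-1; gas-1* with *gas-1* mutants, which asks what the *age-1* mutation adds on the *gas-1* background, was not used to choose the genes. Of the 5 members, 2 rose and 0 fell, against 13.5% of all genes tested that rose and 19.5% that fell. *fmo-1* rose by 0.97 on the log2 scale (SE 0.23, 95% interval 0.47 to 1.47, adjusted p = 0.00542 from limma), and its mean was 1.96 times that in *gas-1*. It was the member whose libraries did not overlap, as was the case for 10.6% of all genes in the upward direction. *fmo-2* rose by 0.86 (SE 0.23, interval 0.37 to 1.34, adjusted p = 0.00952 from limma), with a ratio of means of 1.75, and 4 of 5 *age-1; gas-1* libraries were above every *gas-1* library. In an exact two-sided permutation test over the 10 libraries p was 0.00794 for *fmo-1*, the smallest that 5 libraries against 5 allow, and 0.0159 for *fmo-2*.

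The rise of *fmo-2* was less firm than that of *fmo-1*. Without the 4 libraries low in sperm markers, a comparison made after the data were seen, it was 0.68 with an adjusted p of 0.0532 from limma, so that 1 member remained called. In *gas-1* the library among these, replicate 2, held the lowest *fmo-2* level of its strain at 11.9 FPKM. The difference in the rise between *fmo-1* and *fmo-2* was not tested.

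The other 3 members did not pass between the mutants. The log2 fold change was 0.04 for *fmo-3* (interval -0.28 to 0.36, adjusted p = 0.869 from limma). It was 0.06 for *fmo-4* (interval -0.11 to 0.23, adjusted p = 0.625 from limma) and 0.15 for *fmo-5* (interval -0.04 to 0.35, adjusted p = 0.212 from limma). For *fmo-4*, whose libraries varied little, a further change by more than 0.23 in either direction lies outside the interval.

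Some markers of tissues moved between these strains as well, where 13.5% of all genes rose and 19.5% fell. Of 7 intestinal marker genes tested, 2 rose in the double mutants over *gas-1* mutants and 1, *act-5*, fell by 0.44. The carboxylesterase gene *ges-1* rose by 1.11 to 110.8 FPKM in *age-1; gas-1*, against 51.5 in *gas-1*. The summed level of these markers overlapped, at 853 to 1020 FPKM in *age-1; gas-1* and 825 to 1090 in *gas-1*. Their median on the log2 scale did not, at 6.67 to 6.86 in *age-1; gas-1* and 5.56 to 6.05 in *gas-1*. In both strains, however, this median is the level of *ges-1* itself, so it says nothing more about the list. All 7 markers were above 1 FPKM in at least 1 library of each strain. Oocyte markers went the other way, and 7 of 8 fell while 0 rose, with a median of -0.27. Their summed level did not overlap, at 2900.4 to 3456 FPKM in *age-1; gas-1* and 3487 to 4469 in *gas-1*. With median-of-ratios scaling 4 of the 8 fell. Among 4 tested markers of the pharyngeal gland 2 rose, *phat-2* and *dod-6*, and 1 fell. *dod-6* had 19.1 FPKM in *age-1; gas-1* and 9.51 in *gas-1*. *phat-3* fell by 0.32 but was not called with upper-quartile scaling or without the 4 libraries low in sperm markers. *phat-4* did not pass. The median of all 7 matched gland genes on the log2 scale was 1.497 to 1.84 in *age-1; gas-1* and -0.34 to 0.85 in *gas-1*. These 7 include genes below the filter, 2 of them under 1 FPKM in every library. The median is the level of 1 gene, *phat-2*, with 3.04 FPKM in *age-1; gas-1* and 1.31 in *gas-1*, so it shows no shift of the list. The sums of the gland genes overlapped, at 40.9 to 58.9 FPKM and 27.8 to 45.1 FPKM. The part of these markers in the levels of *fmo-1* and *fmo-2* was not tested.

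Against wt the values are a description, since the genes were chosen on the strength of *fmo-2* in these comparisons. *fmo-2* was higher by 7.35 on the log2 scale in *age-1; gas-1* (interval 6.87 to 7.83) and by 6.49 in *gas-1* (interval 6.01 to 6.98). The ratio of the means was 329 in *age-1; gas-1* and 188 in *gas-1*. The lowest *age-1; gas-1* library was 138 times the highest wt library and the lowest *gas-1* library 69.6 times. Because wt levels lay near the 0.1 FPKM that was added, the fitted change depends on that number: with 1 FPKM it was 4.84 in *age-1; gas-1* and 4.02 in *gas-1*. *fmo-2* had the highest fitted change of all 11648 genes against wt in both mutants, but with 1 FPKM added its rank was 1 in *age-1; gas-1* and 7 in *gas-1*.

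*fmo-4* was higher by 0.91 in *age-1; gas-1* (interval 0.74 to 1.09) and by 0.86 in *gas-1* (interval 0.68 to 1.03) than in wt, and the ratio of means was 1.88 for *age-1; gas-1* and 1.81 for *gas-1*. *fmo-1* was higher by 0.94 in *age-1; gas-1* (interval 0.44 to 1.44) and differed from wt by -0.03 in *gas-1* (interval -0.53 to 0.47). With quantile normalization *fmo-1* stood at 0.61 in *age-1; gas-1* and -0.36 in *gas-1*, and without wt replicate 1, its highest wt library, at 1.18 and 0.21, so the sign in *gas-1* is not settled. *fmo-3* was higher by 0.45 in *age-1; gas-1* and by 0.40 in *gas-1*, and *fmo-5* differed by 0.14 in *age-1; gas-1* and -0.01 in *gas-1*. The direction of these small differences of *fmo-3* and *fmo-5* depends on the scaling. With quantile normalization *fmo-3* stood at -0.16 in *age-1; gas-1* and -0.08 in *gas-1*, and *fmo-5* at -0.45 in *age-1; gas-1* and -0.49 in *gas-1*. The median gene was itself higher by 0.14 in either mutant strain as deposited, and by 0.02 in *age-1; gas-1* and 0.01 in *gas-1* with median-of-ratios scaling.

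The libraries of *fmo-2* and *fmo-4* did not overlap with wt in either mutant strain, which in the upward direction held for 35.2% of all genes in *age-1; gas-1* and 31.7% in *gas-1*. At the threshold used for all genes, 4 members were higher and 0 lower in *age-1; gas-1*, where 44.5% of all genes were called higher and 31.2% lower. In *gas-1* 3 were higher and 0 lower, where 44% were called higher and 24.6% lower. Nothing is read from these counts.

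Tissue markers also differed between the mutants and wt. Of all genes tested, 44.5% were called higher and 31.2% lower in *age-1; gas-1*, and 44% higher and 24.6% lower in *gas-1*. Of 7 tested hypodermal markers, 5 were higher in each mutant strain than in wt and 0 passed between the mutants. When the 4 libraries low in sperm markers were left out, 2 were lower in *age-1; gas-1* than in *gas-1*. The median of the 8 matched, with *qua-1* under 1 FPKM in every library, was 2.78 to 3.46 on the log2 scale in *age-1; gas-1*. It was 2.46 to 3.28 in *gas-1* and 0.69 to 1.75 in wt. By mean level its 2 middle genes were *dpy-7* and *elt-3*, so it says little about the rest of the list. *dpy-7* had 13.1 FPKM in *age-1; gas-1* and 8.74 in *gas-1*, against 1.31 in wt. *elt-3* had 5.47 FPKM in *age-1; gas-1* and 5.49 in *gas-1*, against 4.24 in wt. *col-19* and *lin-26* did not pass in either strain. The summed level of the 8 overlapped, at 720 to 1217 FPKM in *age-1; gas-1*, 778 to 1269 in *gas-1* and 620 to 1103 in wt. Of 7 excretory markers 4 were higher in either mutant strain, with 2 lower in *age-1; gas-1* and 1 lower in *gas-1*. With quantile normalization 2 were higher and 2 lower in *age-1; gas-1*, and 1 was higher and 2 lower in *gas-1*, where the median was -0.03 in place of 0.52. Their summed level overlapped, at 93.8 to 118.5 FPKM in *age-1; gas-1*, 94.0 to 103 FPKM in *gas-1* and 86.9 to 103 FPKM in wt. The intestinal sums given above for the mutants lay above those of wt, at 503 to 807 FPKM, and 5 of 7 intestinal markers were higher in *gas-1* than in wt, with a median of 0.87. Oocyte markers were lower, 8 of 8 in *age-1; gas-1* and 4 of 8 in *gas-1*, and 0 were higher. Their sum of 4478 to 5641 FPKM in wt lay above the sums of both mutant strains. Of the 4 tested pharyngeal gland markers 2 were higher and 1 lower in *age-1; gas-1*, and 1 was higher and 1 lower in *gas-1*, against 0 higher and 2 lower with quantile normalization in *gas-1*. The wt median of the gland list, again the level of *phat-2*, was -0.64 to 0.46 on the log2 scale, below *age-1; gas-1* and overlapping with *gas-1*. Of 5 neuron markers 4 were higher in each mutant strain, and with quantile normalization 4 in *age-1; gas-1* and 2 in *gas-1*. Of 6 muscle markers 3 were higher in each strain. Of 10 embryo markers 8 were under 1 FPKM in every library. The 2 tested, *pha-4* and *ceh-51*, were higher in each mutant strain, and with quantile normalization 1 was. The summed level of the 10 was 15.6 to 25.7 FPKM in *age-1; gas-1* and 14.0 to 17.9 in *gas-1*. In wt it was 5.03 to 16.1 FPKM, highest in replicate 3, a library low in sperm markers. The part of these markers in the levels of *fmo-2* and *fmo-4* was not tested.

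**Figure D3:**
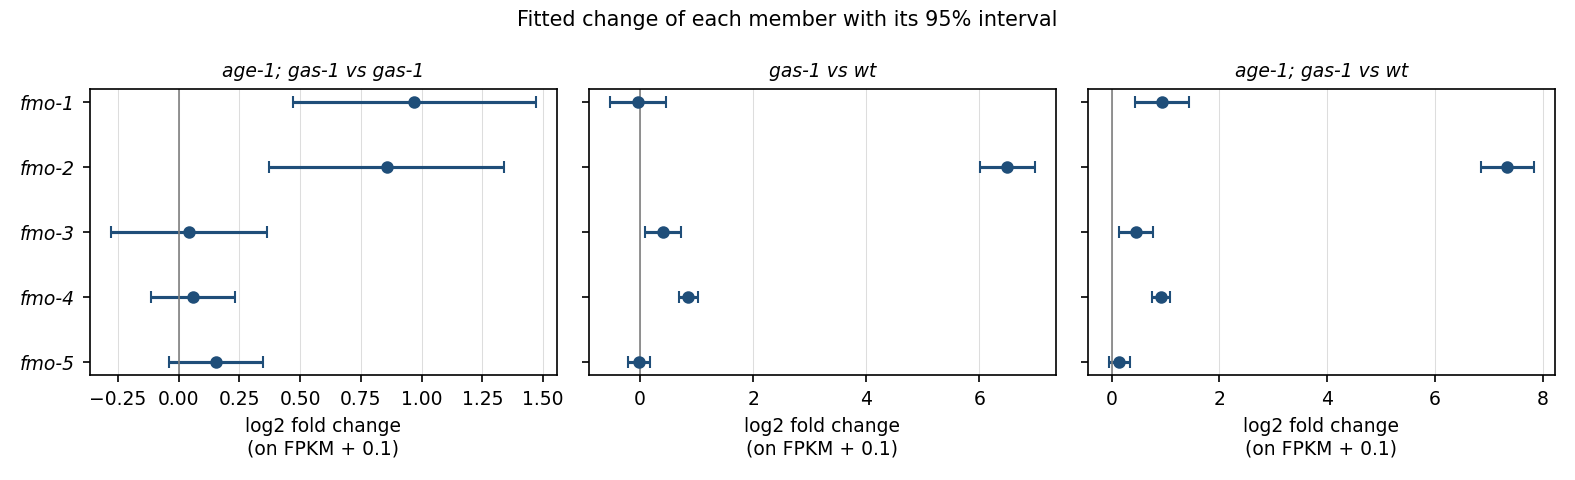
Fitted log2 fold change on FPKM + 0.1 of each flavin monooxygenase gene with its 95% interval, for *age-1; gas-1* against *gas-1*, *gas-1* against wt and *age-1; gas-1* against wt. Between the mutants *fmo-1* at 0.97 and *fmo-2* at 0.86 lie above 0, and against wt *fmo-2* stands apart at 6.49 and 7.35 while *fmo-4* is at 0.86 and 0.91. The scales of the panels differ.

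Position was examined because *fmo-1* and *fmo-2* are near each other and both were higher in *age-1; gas-1* than in *gas-1*. Between the mutants 13.5% of all genes rose and 19.5% fell. Of the 10 tested genes nearest to *fmo-2*, 5 on each side, 2 rose between the mutants and 0 fell, with a median of 0.15. These were *fmo-1* and K08C7.6, which rose by 0.42 (adjusted p = 0.0217 from limma). In *gas-1* compared to wt the highest change among the 10 was 1.95, in the globin gene *glb-19*. The nearest gene before *fmo-2*, K08C7.4 on the other strand, was higher by 0.95 in *gas-1* (adjusted p = 0.00100 from limma) with 1.15 FPKM in *gas-1* against 0.569 in wt. The nearest gene after it, K08C7.6, differed by -0.08 in *gas-1* compared to wt.

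Next to *fmo-1*, K08C7.1 and the laminin gene *epi-1* differed between the mutants by 0.11 and 0.18 and did not pass the test. Beside *fmo-4*, *spig-9* rose by 1.15 to 12.7 FPKM in *age-1; gas-1*, against 5.66 in *gas-1*, and *tbcb-1*, a tubulin cofactor gene, fell by 0.19. Of the 10 genes around *fmo-3*, 1 rose and 7 fell between the mutants, among them its nearest neighbour after it, Y39A1A.20, which fell by 0.28, while *cnt-2* before it differed by 0.03. Around *fmo-5* 4 rose and 0 fell, including T02B11.4 by 0.49, and *trm-2A* differed by -0.09. Nothing is read from these counts of neighbours, which stand against 13.5% of all genes that rose and 19.5% that fell.

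**Figure D4:**
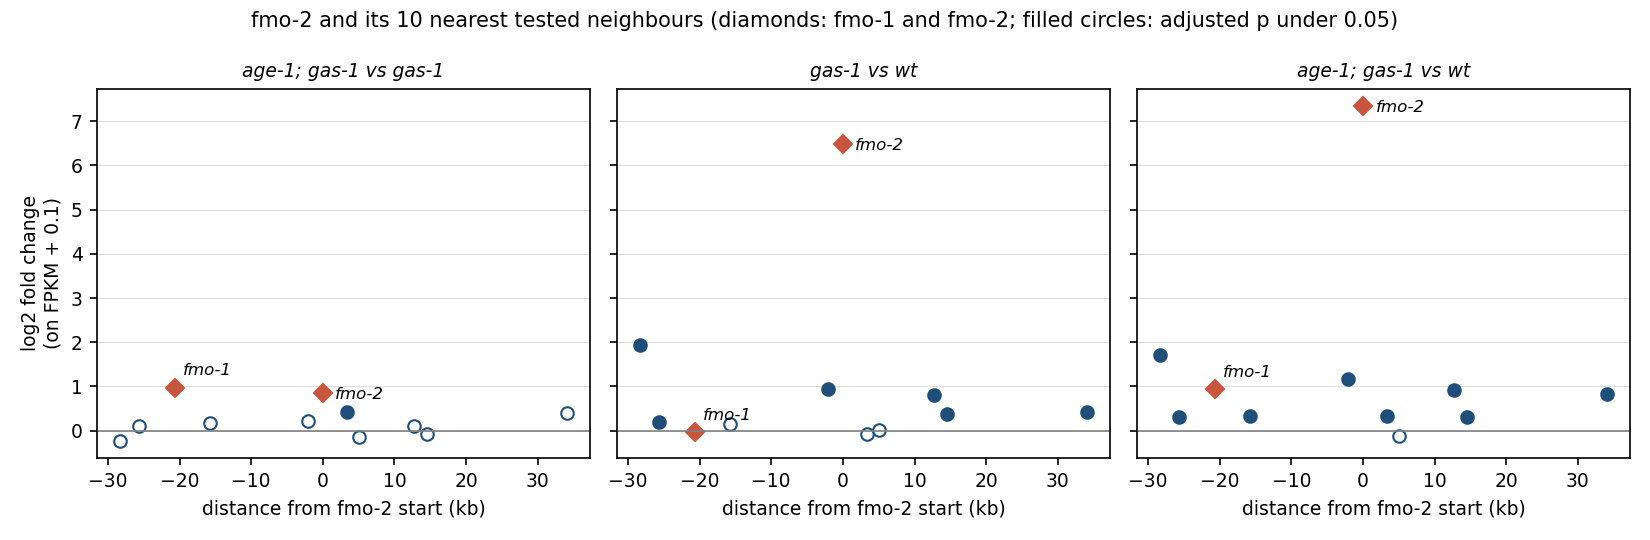
Log2 fold change on FPKM + 0.1 of *fmo-2*, *fmo-1* and the other tested genes nearest to *fmo-2* against the distance of their start from the start of *fmo-2* in kb, in each of the 3 comparisons. Diamonds are the 2 flavin monooxygenase genes, filled circles other genes called. Against wt *fmo-2* stands at 6.49 and 7.35, and the highest neighbour in *gas-1* compared to wt, *glb-19*, at 1.95.

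The genes whose pattern was most like that of each member were sought by the root mean square difference of log2 values centred on the wt mean over the 15 libraries. For *fmo-2* the closest was F41C3.1, with a difference of 0.866 and means of 37.5 FPKM in *age-1; gas-1*, 36.6 in *gas-1* and 0.463 in wt, and it was the 1 gene within a difference of 1. Y58A7A.4 followed at 1.46, the cytochrome P450 gene *cyp-14A4* at 1.47, the glutathione S-transferase gene *gst-14* at 1.504 and *oac-32*, of a family of acyltransferase homologs, at 1.65. Of these 5, *oac-32* was the one with a log2 fold change between the mutants near that of *fmo-2*, at 0.90, with 21.2 FPKM in *age-1; gas-1* and 11.5 in *gas-1*. The other 4 lay between -0.36 and 0.08 there.

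For the other members many genes were close. *fmo-1* was most like the inositol transporter gene *hmit-1.3*, at 0.232, and T24C2.5, at 0.243. *fmo-4* was most like *mrp-1*, which encodes an ABC transporter, at 0.0825, with 55.2 FPKM in *age-1; gas-1*, 52.5 in *gas-1* and 28.6 in wt, and like F13D2.1 at 0.0864. *fmo-3* was closest to K03B8.8 and C18D11.1, at 0.117 and 0.131, and *fmo-5* to the kinase gene *nekl-3* and to F15D3.6, at 0.0814 and 0.0910. Within a difference of 0.5 lay 1010 genes for *fmo-1*, 5200 for *fmo-3*, 3440 for *fmo-4*, 7087 for *fmo-5* and 0 for *fmo-2*. Nothing is read from these counts, since they depend on how far a member differed from wt. For *fmo-2* that difference was the highest of all genes tested and the ground for choosing the family. Its distances also depend on the 0.1 FPKM added. *fmo-5*, in contrast, differed little from wt.

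HIF-1, its partner and the proteins that hold it down or release it stand upstream of *fmo-2*, so the list mixes both directions of action. Of all genes tested, 13.5% rose and 19.5% fell between the mutants. Against wt 44.5% were higher and 31.2% lower in *age-1; gas-1*, and 44% higher and 24.6% lower in *gas-1*. The counts of this list and of those below stand against these shares. Between the mutants, 1 of the 7 genes of this list rose and 1 fell, with a median of 0.02 against -0.02 for all genes. *hif-1* rose by 0.17 to 296 FPKM in *age-1; gas-1*, against 264 in *gas-1* and 190.5 in wt. The gene *rhy-1*, whose membrane protein keeps HIF-1 low, fell by 0.77 (adjusted p = 0.000164 from limma) to 3.36 FPKM in *age-1; gas-1*, against 5.74 in *gas-1*. The remaining 5 did not pass between the mutants: the prolyl hydroxylase gene *egl-9*, the ubiquitin ligase genes *vhl-1* and *elc-1*, the HIF-1 partner gene *aha-1*, and *cysl-1*, whose product binds and blocks EGL-9, lay between -0.10 and 0.12.

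In *gas-1* compared to wt 6 of the 7 were higher and 1, *elc-1*, was lower, with a median of 0.47 against 0.14 for all genes. Among them *cysl-1* was higher by 1.41, at 26.5 FPKM in *gas-1* and 9.94 in wt, and *hif-1* by 0.47. With quantile normalization 2 of 7 were higher and *vhl-1* and *aha-1* changed direction, so several of these changes rest on the scaling. *egl-9* at 5.94 FPKM in *gas-1* and 4.21 in wt was no longer called there either. The same held for *rhy-1*, which was higher by 0.59 as deposited and by 0.18 there (adjusted p = 0.0994 from limma).

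Of 8 textbook targets of HIF-1, 0 rose between the mutants and 1, *rhy-1*, fell, with a median of 0.06. Both *rhy-1* and *egl-9* were already counted in the list above. *nhr-57*, a nuclear receptor gene, had 1.92 FPKM in *age-1; gas-1* and 1.67 in *gas-1*, and *ethe-1*, for a mitochondrial sulfur dioxygenase, 4.58 and 4.04 FPKM. Compared to wt 44.5% of all genes were higher in *age-1; gas-1* and 44% in *gas-1*. Of the 8 targets 7 were higher in *age-1; gas-1*, with a median of 1.08, and all 8 in *gas-1*, with a median of 0.99. With quantile normalization 6 were higher in *age-1; gas-1* and 5 in *gas-1*. The highest of them, F22B5.4, named after its value was seen, had 2.07 FPKM in *age-1; gas-1*, 2.15 in *gas-1* and 0.197 in wt, a difference of 3.00 on the log2 scale in *gas-1*. *nhr-57* was higher by 2.20 in *gas-1*, with 0.283 FPKM in wt.

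Other routes to *fmo-2* run through the nuclear receptor NHR-49 with the mediator subunit MDT-15 and the kinase HPK-1, through the lysosomal factor HLH-30, and through serotonin made by TPH-1 and sensed by SER-7. The stress factors SKN-1 and DAF-16 and the kinase PMK-1 were listed with them. Of the 9 genes 3 rose and 1 fell between the mutants. *hlh-30* rose by 0.33 to 162 FPKM in *age-1; gas-1*, against 129 in *gas-1* and 84.9 in wt. *hpk-1* rose by 0.32 to 35.2 FPKM in *age-1; gas-1*, against 28.0 in *gas-1* and 18.2 in wt. *tph-1* rose by 0.51 to 1.14 FPKM in *age-1; gas-1*, against 0.775 in *gas-1*, but with quantile normalization its adjusted p was 0.0896 from limma.

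*pmk-1* fell by 0.97 (adjusted p = 1.12e-05 from limma) to 15.8 FPKM in *age-1; gas-1*, against 31.1 in *gas-1* and 11.4 in wt. Of the transcriptional regulators, *nhr-49*, *skn-1*, *daf-16* and *mdt-15* differed by 0.19 or less on the log2 scale in every comparison. Even so, *daf-16* and *mdt-15* were called higher than wt in both mutant strains, but not with median-of-ratios scaling. Transcript levels do not give the activity of these proteins, which was not measured here. *nhr-49* had 30.1 FPKM in *age-1; gas-1*, 29.4 in *gas-1* and 28.4 in wt, *skn-1* 241, 247 and 230.3 FPKM, *daf-16* 102, 106 and 92.7 FPKM and *mdt-15* 189, 190.4 and 173 FPKM in the same order of strains, and *ser-7* was at 4.57, 5.26 and 4.75 FPKM. Between the mutants *ser-7* passed as lower with quantile normalization alone among the 3 scalings tried (adjusted p = 0.0388 from limma). Against wt 7 of 9 were higher in *age-1; gas-1* and 6 in *gas-1*, and with median-of-ratios scaling 4 in each.

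Of 7 targets of NHR-49, 4 rose between the mutants and 0 fell, with a median of 0.94. The desaturase gene *fat-5* rose by 2.71 to 8.67 FPKM in *age-1; gas-1*, against 1.25 in *gas-1* and 5.47 in wt. *icl-1*, for the glyoxylate cycle enzyme, rose by 1.11 to 600 FPKM in *age-1; gas-1*, against 284 in *gas-1* and 103 in wt, and *hacd-1*, for a hydroxyacyl-CoA dehydrogenase, rose by 0.94. The fourth, *acs-2*, for an acyl-CoA synthetase, rose by 1.10 (adjusted p = 0.0370 from limma) to 123 FPKM, against 60.1 in *gas-1*, and without the 4 libraries low in sperm markers its adjusted p was 0.1001 from limma. Compared to wt, 6 of the 7 were higher and 1 lower in *age-1; gas-1*, with a median of 1.03, and 4 were higher and 2 lower in *gas-1*, with a median of 1.04. With quantile normalization 4 were higher in *age-1; gas-1* and 3 in *gas-1*. The desaturase gene *fat-7* differed most from wt, by -3.74 in *age-1; gas-1* and -3.47 in *gas-1*. It had 7.02 FPKM in *age-1; gas-1* and 7.01 in *gas-1*, against 81.2 in wt, and did not pass between the mutants.

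For targets of SKN-1, which include conjugating enzymes of the same detoxification system, 3 of 7 rose and 2 fell between the mutants, with a median of 0.17, and without the 4 libraries low in sperm markers 1 fell. *gst-10* rose by 0.81 to 14.5 FPKM in *age-1; gas-1*, against 8.25 in *gas-1*, *gcs-1*, for glutathione synthesis, rose by 0.29, and *gst-7* fell by 0.36. Against wt 6 were higher in *age-1; gas-1*, with a median of 1.47, and 5 in *gas-1*, with a median of 0.94.

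Genes of NADPH and flavin supply were listed as well, without regard to the compartment of the cell. Whether their products serve flavin monooxygenases was not tested. Of 10 genes of NADPH supply, 3 rose and 0 fell between the mutants, and 7 did not pass. The transhydrogenase gene *nnt-1* rose by 2.11 (adjusted p = 2.95e-05 from limma) to 20.3 FPKM in *age-1; gas-1*, against 4.78 in *gas-1* and 1.30 in wt. *dao-3* and *alh-3*, for folate enzymes that form NADPH, rose by 0.49 and 0.29. Compared to wt 8 of the 10 were higher in *age-1; gas-1*, with a median of 0.52, and 8 in *gas-1*, with a median of 0.43.

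Of 3 tested genes of flavin supply, the riboflavin transporter gene *rft-1* fell by 0.47 to 5.79 FPKM in *age-1; gas-1*, against 8.01 in *gas-1* and 2.89 in wt. *rft-2*, a second transporter gene, and *flad-1*, for FAD synthesis, differed by -0.08 and 0.12 and did not pass, but *flad-1* did with upper-quartile scaling (adjusted p = 0.0258 from limma). Among 4 tested electron carriers of the related P450 system, *cytb-5.1* rose by 0.33 between the mutants, but without the 4 libraries low in sperm markers its adjusted p was 0.0733 from limma. The reductase gene *emb-8* and D2023.1 did not pass. *emb-8* had 182 FPKM in *age-1; gas-1* and 195 in *gas-1*, against 102 in wt.

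Processes linked to flavin monooxygenases in *C. elegans* were listed too, and their counts between the mutants stand against the 13.5% of all genes that rose and the 19.5% that fell. Of 14 one-carbon genes 1 rose and 4 fell, among them the S-adenosylmethionine synthase genes *sams-1* by 0.60, *sams-3* by 0.40 and *sams-4* by 0.24. The median of this list was -0.15. When the 4 libraries low in sperm markers were left out, 3 rose and 4 fell, with a median of -0.03. Of 6 tested genes of tryptophan breakdown 1 rose, *afmd-1* by 0.34, and 1 fell, *haao-1* by 0.44, while *kynu-1* differed by 0.21. Without the 4 libraries low in sperm markers *haao-1* was no longer called (adjusted p = 0.0917 from limma), and *kynu-1* passed with quantile normalization (adjusted p = 0.0296 from limma) and upper-quartile scaling (adjusted p = 0.0464 from limma). Of 8 genes of endoplasmic reticulum and mitochondrial calcium handling 0 rose and 1 fell, the calcium uniporter gene *mcu-1* by 0.23. *sca-1* and *cnx-1*, for the calcium pump and calnexin, differed by -0.07 and -0.08.

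**Figure D5:**
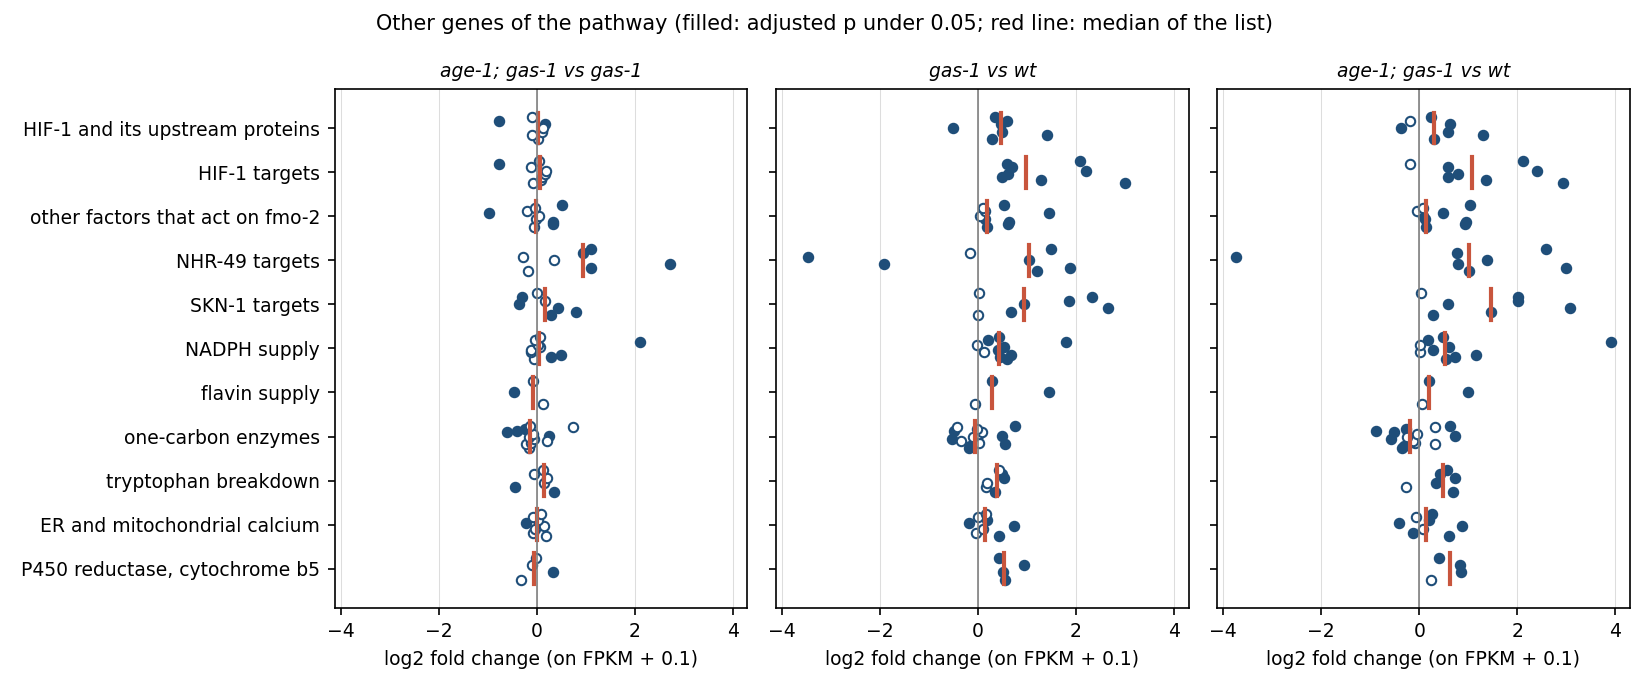
Log2 fold change on FPKM + 0.1 of the other genes of each list in the 3 comparisons, with 1 circle per gene, filled where the gene was called, and the median of the list as a red line. Between the mutants the medians lie near 0 except for NHR-49 targets at 0.94, and in *gas-1* compared to wt all 8 HIF-1 targets lie above 0 with a median of 0.99.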

How the data were processed

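Strain and replicate number of the 15 libraries came from the sample labels. Per the labels, about 100 ng of total RNA were used for each stranded mRNA library and read as single 50 bp reads, and the submitters' processing notes list, with no order, Cuffdiff and Cufflinks 2.1.1, the aligner STAR 2.4.0h, FastQC 0.10.1 and CASAVA 1.8.2. The authors deposited FPKM per gene for each library, so alignment, assignment of reads and scaling to length and depth were theirs. What genome build and annotation they used, and whether strand was counted, is not given in the sources used here. Read totals cannot be had from FPKM, and low values showed no clear steps of whole reads, so no counting error is given and precision rests on the replicates. Although the label gives L4 as the stage, the methods of the study describe extraction for young adults.

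Coordinates of WBcel235 (Ensembl release 115) were matched by gene identifier for 20179 of 20483 genes. Values were analysed as log2(FPKM + 0.1), which understates changes of low genes, in one limma 3.58.1 fit of the 3 strains with a mean-variance trend in R 4.3.3, tested on simulated data. P-values were adjusted by Benjamini-Hochberg over 11648 genes and measure the spread between the biological replicates. All 5 members are named, every listed regulator, up to 3 genes per other list with the smallest adjusted p between the mutants, the genes most like each member and the 2 nearest neighbours. *acs-2*, *fat-7* and F22B5.4 were named after their values were seen, as were the tissue markers named and *glb-19* among the neighbours. Of 163 list entries 162 were matched. Members, lists and alternatives were chosen with earlier results of these data known. The alternatives were pseudocounts, filters, 3 scalings, limma settings, a fit of the 10 libraries compared, a replicate block and leaving out libraries.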

Additional observations from a re-analysis of the deposited data

Results flagged for a closer look

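Among 18 groups of 5 libraries examined, made up of the levels of each member and of their sum in each strain, 1 held a library far from the others. *fmo-1* in *gas-1* replicate 5 had 9.47 FPKM, against 6.64 in the nearest of the other 4, a gap of 0.734 of the range of the group. Chance sets apart about 1 in 20 such groups. Even so, this library lay below the lowest *age-1; gas-1* library at 11.1 FPKM.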

How the results depend on the processing

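Between the mutants, *fmo-1* kept its direction and its side of the threshold under all 28 alternatives, with 0.88 to 1.01, or 0.90 to 1.09 when a library was left out, and an adjusted p of 0.00033 to 0.0299 from limma. *fmo-2* did so under 27 of 28, with 0.74 to 1.01 when a library was left out and an adjusted p of 0.00205 to 0.0532. The exception, chosen after seeing the data, was the fit without the 4 libraries low in sperm markers, with 0.68 and 1 member called in place of 2. Against wt the change of *fmo-2* was 5.71 in *age-1; gas-1* and 4.87 in *gas-1* with 0.5 FPKM added, 4.84 and 4.02 with 1 FPKM, and 6.36 and 5.47 with quantile normalization. Under quantile normalization 1 member, *fmo-5*, was lower than wt in either mutant strain in place of 0, and *fmo-4* was higher by 0.72 and 0.66. A filter of 5 FPKM left no value for *fmo-3* and *fmo-5*. With the replicate block 2 members rose between the mutants, as without it, and calls over all genes were 1488 higher and 2154 lower, against 1572 and 2276. The replicate numbers were not taken to pair the libraries, since correlations of same-numbered libraries of the mutants ran from -0.12 to 0.79 and not every library matched its own number best. Counting depth is unknown, which limits most the wt level of *fmo-2*.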
